A study of Danio rerio with 6 samples.

Results

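Axon guidance ligands and receptors were examined in RNA from whole embryos of the zebrafish (*Danio rerio*), 1 day after fertilisation. The genes were taken by name: class 3 to 7 semaphorins, plexins of the A to D classes, neuropilins, slits, robos, netrins, the unc5 family and *dcc*, with rows that carry a copy suffix such as -2 included. This gave 84 of the 47445 rows of the count table, under 66 distinct names. One row, *unc50*, fits the name pattern but belongs to a gene that is no Unc5 receptor, so its levels are given once and it is left out of the family accounts. Totals and medians over all members still include it. Of the 84 rows, 70 had enough counts to be tested.

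The samples were 3 labelled control (wild type) and 3 labelled as knocked down for *rapgef1b*, a gene for an exchange factor that activates Rap GTPases. The labels name neither the knockdown reagent nor any reagent given to the controls, and the label's cell type is only "embryonic cell". They do not say whether replicates came from separate clutches, so p-values measure the spread between these samples, which may be technical. *rapgef1b* itself read 111, 113 and 110 CPM (counts scaled to a common library size) in the controls and 144, 107 and 142 CPM in the libraries labelled knockdown, at an adjusted edgeR p of 0.386. The targeted transcript was therefore not lower, and directions below are those of the libraries labelled knockdown. RNA counts do not measure the protein, so whether the protein was lower was not tested.

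Growing axons, migrating neural crest cells and sprouting vessels read secreted or membrane-bound cues through receptors at their surface. Semaphorins signal through plexins, and most secreted class 3 semaphorins need a neuropilin as the binding partner. Slits repel axons through Robo receptors, and netrins attract them through Dcc or repel them through Unc5 receptors. Rap GTPases act downstream of plexins, whose cytoplasmic part carries a GTPase-activating domain for Rap. Many zebrafish family members exist as a pair of a and b genes from the genome duplication of teleost fish.

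No guidance gene passed the edgeR test. With edgeR (quasi-likelihood test, Benjamini-Hochberg adjustment over all 15607 tested rows), at an adjusted p-value under 0.05, 0 of the 70 tested members were called. Over all tested rows, 4.29% were called, 2.01% higher and 2.27% lower. DESeq2 called 1 member, *nrp1a*, or 1.43%, against 3.27% of all rows. At an unadjusted p-value under 0.05 there were 10 members, 6 higher and 4 lower, which is 14.3% of those tested, against 18.1% of all rows (8.98% higher and 9.12% lower). The groups did not overlap in CPM for 15 members, 7 higher and 8 lower, or 21.4%, against 23.2% of all rows (11.3% higher and 11.9% lower). One of the lower rows was *unc50*, and without it there were 14, 7 higher and 7 lower, or 20.3%. In this fit each of these shares lay below the share over all rows. Without knockdown replicate 2, 17 members had an unadjusted p-value under 0.05, or 24.3%, against 20.8% of all rows, and 2 were called, or 2.86%, against 5.63%.

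The estimates were small and centred near 0. The median log2 fold change of the tested members was -0.0079, against 0.011 over all rows, and estimates ran from -0.72 for *sema4d* to 0.62 for *unc5da*. Estimates below 0 made up 51.4% of the members and 48.8% of all rows. Without *unc50* the members' median was -0.0012 and 50.7% of them were below 0. Confidence intervals rest on the spread between these samples, which may be technical. The 95% confidence interval lay within 2-fold in either direction for 61 of the 70 members, and within 1.5-fold for 30. The same shares over all rows were 76.7% and 32.8%, against 87.1% and 42.9% of the members. The other 9 intervals reached past 2-fold, and 8 of them crossed 0. The exception was *sema4d*, with an interval from -1.19 to -0.24. Members drew from 8101 to 15872 counts per library, or 0.397% to 0.481% of totals of 2042600 to 3809123.

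**Figure D1:**
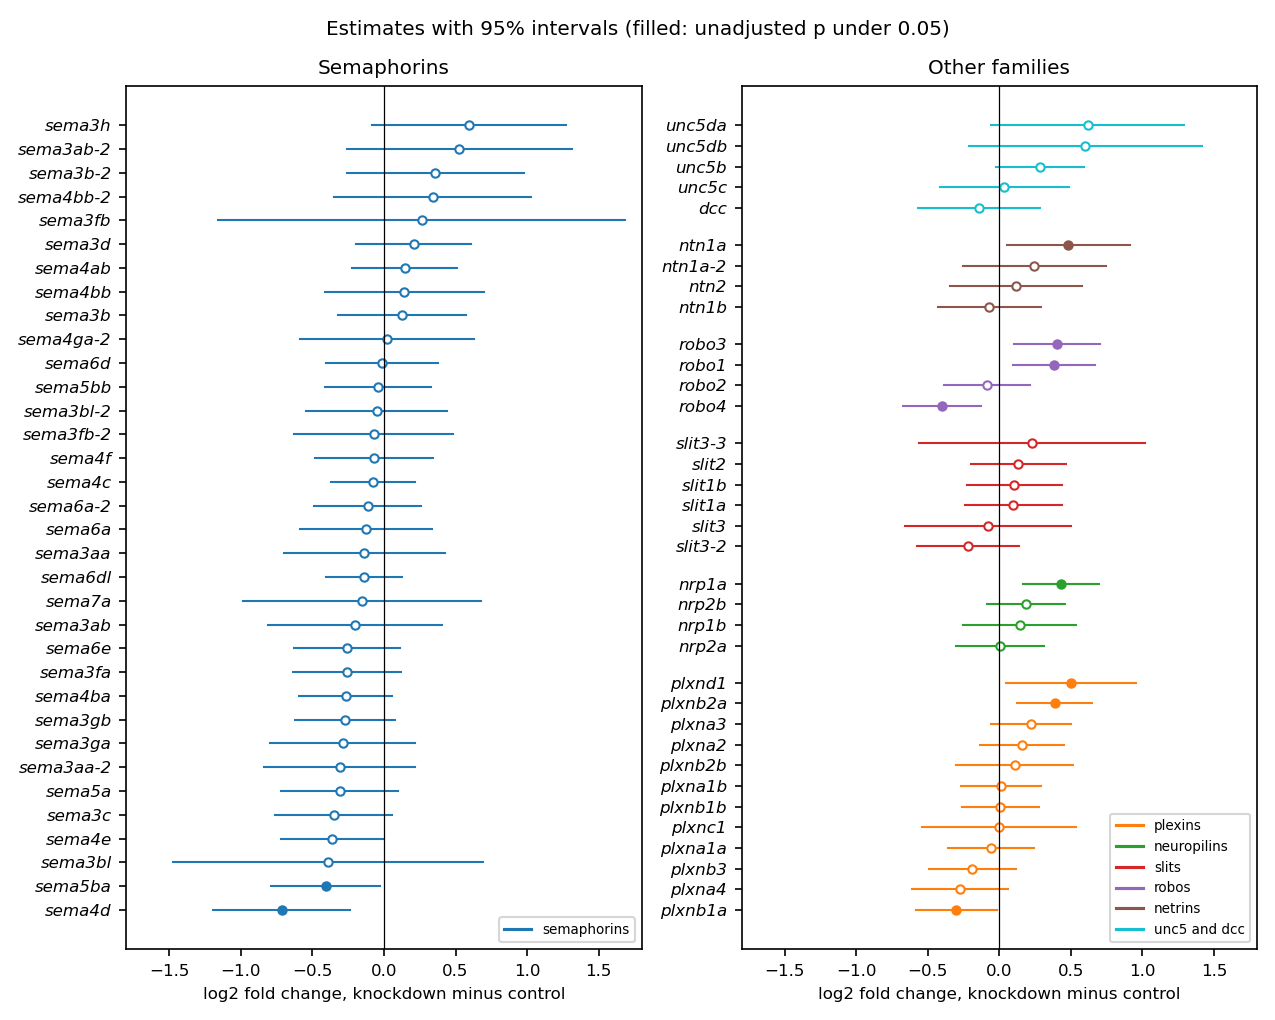
Log2 fold change (libraries labelled knockdown minus control) of 69 tested guidance rows with 95% confidence intervals, semaphorins on the left and the other families on the right; *unc50* is not drawn. Filled points have an unadjusted p-value under 0.05, and estimates run from -0.72 for *sema4d* to 0.62 for *unc5da*.

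Semaphorins are the largest of these families, with 40 rows, of which 34 were tested. Estimates lay below 0 for 24 of the 34, or 70.6%, against 48.8% of all rows, and above 0 for 10. The median was -0.12. None was called. An unadjusted edgeR p-value under 0.05 was found for 2, or 5.88%, against 18.1% of all rows, and both were lower. All 3 tested class 5 rows and all 5 tested class 6 rows had estimates below 0, against 5 of 9 in class 4 and 10 of 16 in class 3. Rows are not all separate genes, since *sema6a* gave 2 of the class 6 rows. No class 6 row had an unadjusted edgeR p-value under 0.05. The summed level of the family was 1095, 1078 and 1067 CPM in controls and 1036, 988 and 919 CPM in the libraries labelled knockdown. The groups did not overlap, with knockdown replicate 3 the lowest, and no test was made of the sum.

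*sema4d*, a membrane-bound ligand whose mammalian protein binds plexin B1, had the lowest estimate. It read 22.6, 21.2 and 20.5 CPM in controls and 12.4, 16.6 and 10.3 CPM in the libraries labelled knockdown. All 3 of the latter were below all controls, with replicate 2 nearest to them. The difference was -0.72 ± 0.23 (log2, SE), at an adjusted edgeR p of 0.0839. Without knockdown replicate 2 it was -0.93 at an adjusted edgeR p of 0.0361, the one alternative of 12 in which it was called; over the alternatives the adjusted p-value ran up to 0.274.

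*sema5ba*, a transmembrane semaphorin with thrombospondin repeats, read 82.4, 71.1 and 58.8 CPM in controls and 65.1, 58 and 38.3 CPM in the libraries labelled knockdown. The groups overlapped, and knockdown replicate 3 was the lowest library. This came to -0.41 ± 0.18 (log2, SE), at an adjusted edgeR p of 0.236; without knockdown replicate 3 the estimate was -0.22. Its paralog *sema5bb* had an estimate of -0.043 and the related *sema5a* one of -0.31.

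The other semaphorins with the most counts differed less. *sema6dl*, a transmembrane class 6 ligand, read 200, 186 and 183 CPM in controls and 177, 176 and 164 CPM in the libraries labelled knockdown, a difference of -0.14 ± 0.13 (log2, SE). *sema4c*, another membrane-bound ligand, read 73, 71.4 and 65 CPM against 63.3, 67.3 and 68.6 CPM, with an estimate of -0.078. Among secreted class 3 ligands, *sema3c* and *sema3gb* had all knockdown values below all control values and estimates of -0.35 and -0.27, and *sema3h* had all of them above, with 0.59. These 3 had adjusted edgeR p-values of 0.364, 0.417 and 0.355. *sema3d*, known in zebrafish for roles in axon and neural crest migration, had an estimate of 0.21 with overlapping groups.

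Plexins, the semaphorin receptors, were all tested, with 12 rows, a median of 0.0092, 7 estimates above 0 and 5 below. *plxnb2a* read 178, 184 and 180 CPM in controls and 240, 222 and 248 CPM in the libraries labelled knockdown. The groups were well apart and each was tight. The difference was 0.39 ± 0.13 (log2, SE), at an adjusted edgeR p of 0.0878, and it ran from 0.35 to 0.42 over the 12 alternatives with no call. Its paralog *plxnb2b* had an estimate of 0.11.

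*plxnd1*, the receptor that restrains vessel sprouting in zebrafish, read 34.7, 30 and 31.7 CPM in controls and 49.2, 28.1 and 59.7 CPM in the libraries labelled knockdown. Replicates 1 and 3 were above all controls and replicate 2 was below them. The difference was 0.50 ± 0.22 (log2, SE), at an adjusted edgeR p of 0.218. It moved with single libraries, to 0.74 at an adjusted edgeR p of 0.0208 without knockdown replicate 2, and to 0.26 at 0.652 without knockdown replicate 3.

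*plxnb1a* lay the other way, at 158, 130 and 131 CPM in controls and 121, 117 and 103 CPM in the libraries labelled knockdown. This came to -0.30 ± 0.13 (log2, SE), at an adjusted edgeR p of 0.238, and the groups did not overlap. Without control replicate 1, the highest library, the estimate was -0.20 at an adjusted edgeR p of 0.637. Its paralog *plxnb1b* read 166, 163 and 139 CPM against 151, 155 and 165 CPM, with an estimate of 0.0074. *plxna3*, a partner of neuropilins for class 3 semaphorins, read 165, 135 and 153 CPM against 191, 157 and 179 CPM, with an estimate of 0.22 and an adjusted edgeR p of 0.411.

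Neuropilins, co-receptors for class 3 semaphorins and for VEGF, comprised 4 rows, all tested and all with an estimate above 0, from 0.0048 to 0.43. *nrp1a* came closest to a call of all the members. It read 201, 216 and 212 CPM in controls and 300, 264 and 283 CPM in the libraries labelled knockdown, so that every knockdown value was above every control value. The difference was 0.43 ± 0.13 (log2, SE), or 1.35-fold, and the adjusted edgeR p-value was 0.0608. DESeq2 gave 0.43 with an adjusted p-value of 0.0478. Over the 12 alternatives the estimate stayed between 0.38 and 0.47, while the adjusted p-value ran from 0.0478 to 0.266.

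*nrp2b* read 197, 197 and 204 CPM in controls and 209, 213 and 257 CPM in the libraries labelled knockdown. Knockdown replicate 3 stood above the rest, and the estimate of 0.18 had an adjusted edgeR p-value of 0.491. Without that library the estimate was 0.079. *nrp2a* read 108, 91.3 and 97.7 CPM against 117, 83.4 and 98 CPM, with an estimate of 0.0048. Its sign was not stable, since the estimate ran from -0.13 to 0.11 over the 12 alternatives and was below 0 in 6. *nrp1b* had an estimate of 0.14.

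**Figure D2:**
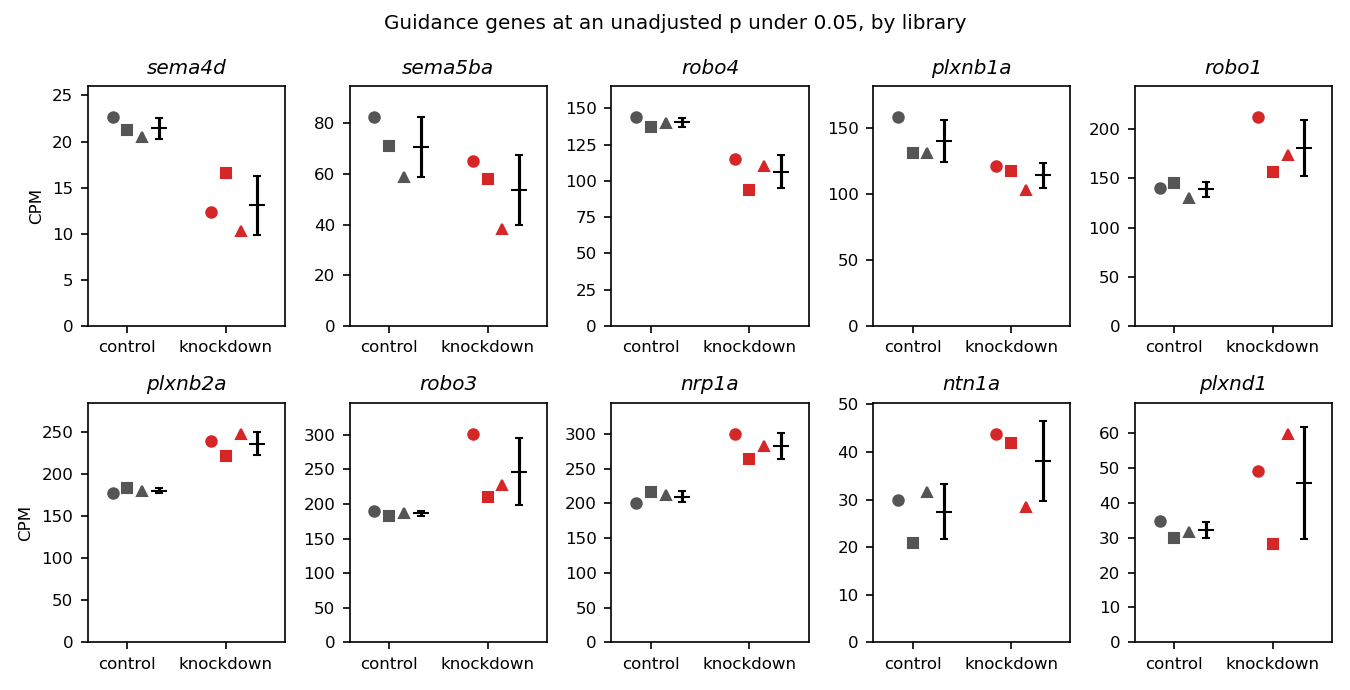
Level in CPM of the 10 guidance genes with an unadjusted p-value under 0.05, by library, ordered by fold change from *sema4d* to *plxnd1*; circles, squares and triangles are replicates 1, 2 and 3 and black bars the mean with 1 SD. The groups do not overlap for 7 of the 10 and overlap for *sema5ba*, *ntn1a* and *plxnd1*, and none passed the adjusted test. The genes were chosen by a test on these same libraries, so their separation here is no further evidence.

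Slits, the secreted ligands of the Robo receptors, had 8 rows, of which 6 were tested, with no unadjusted p-value under 0.05. *slit1a* read 223, 259 and 216 CPM in controls and 306, 181 and 261 CPM in the libraries labelled knockdown, which span the controls on both sides. *slit2*, a midline repellent, read 104, 80.9 and 109 CPM against 128, 108 and 85.4 CPM. The estimates were 0.097 ± 0.16 and 0.13 ± 0.16 (log2, SE), and their sign rested on knockdown replicate 1, without which they were -0.077 and -0.017. *slit3* had 3 rows, with estimates of -0.080, -0.22 and 0.23, and -0.15 ± 0.14 (SE) when the rows were summed.

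The Robo receptors split in direction. *robo3*, the receptor that lets commissural axons cross the midline, read 190, 183 and 187 CPM in controls and 302, 211 and 227 CPM in the libraries labelled knockdown. *robo1* read 140, 145 and 130 CPM in controls and 212, 157 and 174 CPM in those labelled knockdown. For both genes every knockdown value lay above every control value and replicate 1 was the highest. The difference was 0.40 ± 0.14 (log2, SE) for *robo3* and 0.38 ± 0.14 for *robo1*, at adjusted edgeR p-values of 0.122 and 0.129. Without knockdown replicate 1 the estimates were 0.23 and 0.25.

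*robo4*, whose mammalian protein is found chiefly on endothelial cells, read 144, 137 and 140 CPM in controls and 115, 93.5 and 110 CPM in the libraries labelled knockdown. The values did not overlap. The difference was -0.40 ± 0.13 (log2, SE), at an adjusted edgeR p of 0.0903, and it ran from -0.46 to -0.33 over the alternatives with no call. *robo2* read 81.9, 76 and 72.6 CPM against 81, 72.3 and 64.4 CPM, with an estimate of -0.086. Whether the Robo genes differ from each other in their response was not tested.

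Netrins had 8 rows, of which 4 were tested. *ntn1a*, one of the zebrafish netrin 1 genes, read 29.9, 20.9 and 31.7 CPM in controls and 43.8, 41.9 and 28.5 CPM in the libraries labelled knockdown. The groups overlapped, since knockdown replicate 3 lay within the control range. The difference was 0.48 ± 0.21 (log2, SE), at an adjusted edgeR p of 0.212, and 0.41 ± 0.18 (SE) when its 2 rows were summed. The estimate without control replicate 2, the lowest library, was 0.31. The second row, *ntn1a-2*, had an estimate of 0.24. *ntn1b* read 49.8, 63.9 and 55.8 CPM against 63.8, 55.7 and 41.5 CPM, an estimate of -0.070, and *ntn2* had one of 0.12.

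The netrin receptors, *dcc* and the unc5 family, had 7 rows, of which 5 were tested. *unc5b* read 84, 89.7 and 111 CPM in controls and 112, 102 and 131 CPM in the libraries labelled knockdown, with a difference of 0.28 ± 0.15 (log2, SE; adjusted edgeR p-value 0.316). *dcc* read 36.1, 29.4 and 29.2 CPM in controls and 38.1, 25.3 and 22.9 CPM in those labelled knockdown, an estimate of -0.14 ± 0.20 (SE). It was -0.40 without knockdown replicate 1, the highest library, and -0.0075 without knockdown replicate 3, the lowest. *unc5c* had an estimate of 0.036. *unc5da* and *unc5db* had the highest estimates of this family, 0.62 and 0.60, on at most 23 counts per library, at adjusted edgeR p-values of 0.326 and 0.442. The gene taken in by name alone, *unc50*, read 12.1, 12.7 and 13.8 CPM against 11.5, 9.21 and 8.87 CPM, at an adjusted edgeR p of 0.471.

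The libraries labelled knockdown did not move together. Relative to the mean of the controls, the median log2 deviation of all tested members was 0.17, -0.09 and -0.01 in knockdown replicates 1, 2 and 3, and the 3 controls lay between -0.02 and 0.01. Each control is part of the mean it is measured against, which draws controls towards 0. The control ranges given here are therefore no equal yardstick for the libraries labelled knockdown. The 25 tested receptor rows deviated by 0.24, -0.08 and 0.09, with controls between -0.03 and 0.07. The semaphorins were below 0 in all 3, by -0.10, -0.13 and -0.19. The neuropilins were above 0 in all 3, by 0.22, 0.06 and 0.30. By median log2 fold change, the 44 ligand rows stood at -0.072 and the 25 receptor rows at 0.11. Of the receptors, 7 had an unadjusted p-value under 0.05, or 28%, and of the ligands 3, or 6.82%, against 18.1% of all rows. Receptor estimates were also the more precise, with a median standard error of 0.14 against 0.21 for ligands, and whether the difference in shares follows from that was not tested.

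**Figure D3:**
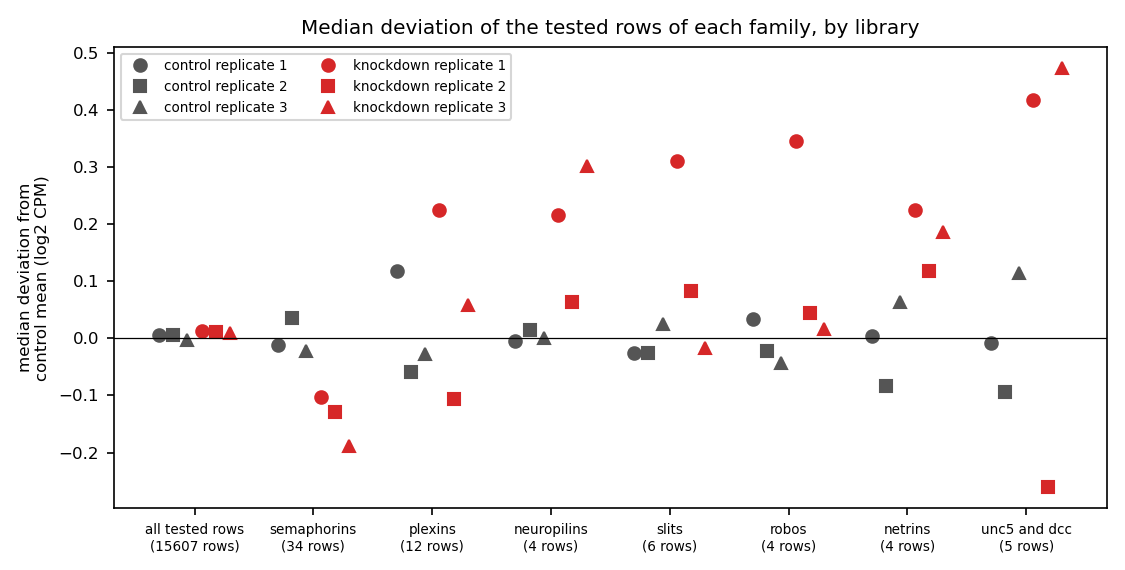
Median deviation of each family's tested rows from the control mean on the log2 CPM scale, 1 point per library; grey points are controls and red points the libraries labelled knockdown. Semaphorins lie at -0.10 to -0.19 in the red points, while knockdown replicate 2 parts from replicates 1 and 3 in the unc5 and *dcc* rows. Controls are part of the mean they are measured against, which draws the grey points towards 0.

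For 13 pairs of a and b paralogs with both rows tested, the ratio of the a row to the b row was compared between groups, which cancels the scaling of the library. The difference of the mean log2 ratio ran from -0.51 for the *sema3f* pair to 0.56 for the *ntn1* pair, on unsuffixed rows. When all rows of a name were summed, an alternative chosen after the data were seen, these became -0.28 and 0.50, and the *sema4b* pair was lowest at -0.47. The *sema3a* pair went from 0.063 to -0.33 with overlapping groups. The ratio of *ntn1a*, without its second row, to *ntn1b* was 0.60, 0.33 and 0.57 in controls and 0.69, 0.75 and 0.69 in the libraries labelled knockdown. The two-sided exact permutation p-value was 0.1, the smallest that 3 against 3 samples allow, and 0.65 when adjusted over the 13 pairs. The ratio of *plxnb1a* to *plxnb1b* was 0.95, 0.80 and 0.94 in controls and 0.80, 0.76 and 0.62 in those labelled knockdown, with an exact permutation p-value of 0.2. The *ntn1* pair was the one pair of the 13 whose groups did not overlap, with rows apart or summed. With 3 against 3 samples any pair without overlap has that p-value of 0.1, so the separation adds no evidence. For single rows, the groups did not overlap in 23.2% of all tested rows, and no such share is given here for ratios of other genes.

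Rows that share a name divided its counts differently from library to library. Of the 66 names, 17 had more than 1 row. For *sema3fb*, the unsuffixed row held 14.9%, 8.47% and 46.8% of the counts of both rows in controls and 43.8%, 7.02% and 31.1% in the libraries labelled knockdown. For *slit3* the shares over its 3 rows were 21%, 23.1% and 41.9% in controls and 30.9%, 20.4% and 38% in those labelled knockdown. In both genes control replicate 3 and knockdown replicates 1 and 3 were higher than the other 3 libraries. For *sema3bl* the row's share was 61.9%, 63% and 26.7% against 51.5%, 63.4% and 30.9%, with control replicate 3 and knockdown replicate 3 the lowest.

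Exact 95% binomial intervals, which cover counting error only, did not overlap between at least 1 pair of libraries for 5 of the 10 names with at least 30 counts in every library. These were *sema3aa*, *sema3b*, *sema3bl*, *sema3fb* and *slit3*. Levels of single rows under these names are uncertain for that reason. The intervals were not adjusted for the number of library pairs. For *sema3aa* they only just parted, with a lower bound of 48.50% in control replicate 3 and an upper bound of 48.47% in knockdown replicate 1. Of the 10 names, *slit1a* and *slit2* had at least 98.97% of their counts on 1 row in every library. When the rows were summed, the estimate of *sema3fb* went from 0.26 ± 0.65 (SE) to -0.0017 with 0.20, and that of *sema3bl* from -0.39 with 0.47 to -0.23 with 0.20. No member was called after summing.

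**Figure D4:**
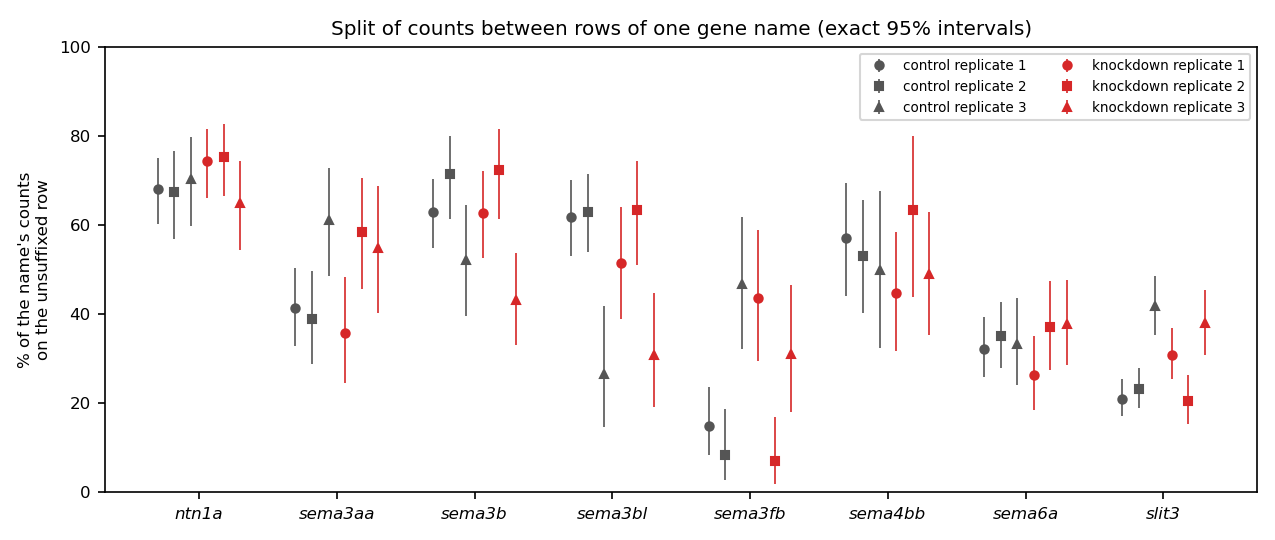
Share of a gene name's counts on its unsuffixed row, in percent, for 8 names with at least 30 counts in every library and counts on more than 1 row in each; bars are exact 95% binomial intervals, grey points controls and red points the libraries labelled knockdown. The *sema3fb* share runs from 7.02% to 46.8% and does not follow the groups, since both colours hold low and high values.

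The 14 rows that were not tested held few counts. *unc5a* had 5 to 15 counts per library, *ntn4* 3 to 13, and both rows of *ntn5* 2 to 12. *sema3e*, both rows of *sema6bb*, *sema4gb*, *sema4ga* and *sema3e-2* had at most 7 counts in any library, and *ntn4-2* and *slit2-2* at most 3. *slit1a-2* and *unc5da-2* had 0 counts in all libraries. No change in these single rows was tested in the main fit. The fit without a filter on low counts tested 82 of the 84 rows of the set and called 0, against 3.25% of all rows. Some of these names were tested through another row: *slit1a*, *slit2*, *unc5da* and *sema4ga*, the last with an estimate of 0.022 for *sema4ga-2*. Summed rows allowed a test of *ntn5*, at 0.11 with a 95% interval from -0.66 to 0.88 (log2).

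Genes that work with these receptors were examined in lists. Of 36 rows for 27 co-receptors and partners, such as the netrin receptor gene *neo1a*, repulsive guidance molecules, draxin and L1-type adhesion molecules, 25 were tested and 0 were called by edgeR, with 2 at an unadjusted p-value under 0.05 and a median log2 fold change of -0.037. Of 64 rows for 50 intracellular effectors, such as the collapsin response mediators, srGAPs, *trioa* and Nck adaptors, 54 were tested and 0 called by edgeR. Their unadjusted count was 9, or 16.7%, with 4 higher and 5 lower, and the median was 0.11. The unadjusted share was 8% for the co-receptors and partners and 18.1% over all rows. By edgeR, 4.29% of all rows were called, so few calls would be expected in lists of this size.

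Markers of the cells that express or read guidance cues were set beside these results. RNA came from whole embryos, so fewer cells of a type and less RNA per cell cannot be told apart. Neuron markers had a median of -0.26 over 28 rows, with 22 below 0 and 2 called, both lower: *tubb5*, a tubulin gene, and *nefma*, a neurofilament gene, at -0.60 and -1.01 at adjusted edgeR p-values of 0.0336 and 0.0438. Both lost the call in most fits without 1 library: *tubb5* in 5 of the 6, at up to 0.155 without control replicate 1, and *nefma* in all 6, at up to 0.157 without control replicate 2. In these fits the estimate ran from -0.82 to -0.47 for *tubb5* and from -1.12 to -0.92 for *nefma*. The share of all rows called was 1.52% without control replicate 1 and 1.35% without control replicate 2. *nefma* was also not called by DESeq2, at an adjusted p of 0.133, whereas *tubb5* was, at 0.0232. The 2 edgeR calls made up 7.14% of the neuron marker rows, against 4.29% of all rows. An unadjusted edgeR p-value under 0.05 was found for 10 neuron marker rows, all lower. That is 35.7% of those tested, against 18.1% of all rows. The summed level of these markers was 1882 to 2046 CPM in controls and 1282 to 1703 CPM in the libraries labelled knockdown. Neural progenitor and glial markers had a median of -0.33 over 18 rows, with *sox2*, *sox3* and *gfap* called lower, at -0.62, -0.63 and -0.63. Without control replicate 2 the adjusted edgeR p of these 3 was 0.249, 0.0617 and 0.0553; *sox2* and *gfap* also lost the call without control replicate 1, at 0.126 and 0.091, and *sox2* without knockdown replicate 1, at 0.0829. These 3 calls made up 16.7% of the tested rows of the list. At an unadjusted edgeR p-value under 0.05 there were 8 rows, or 44.4%, all lower. The list summed to 2841 to 3185 CPM in controls against 2456 to 2629 CPM in the libraries labelled knockdown. The median of -0.0079 over all members, *unc50* included, lay above both marker medians. The part of cell numbers in any guidance value was not tested.

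Endothelial markers had a median of -0.16 over 23 rows, with 16 below 0 and 7 above. At an unadjusted edgeR p-value under 0.05, 3 were higher and 6 lower, together 39.1% of the tested rows, against 18.1% of all rows. The 1 called, *kdr*, a VEGF receptor gene, was higher at 0.80. This is 4.35% of the list's tested rows, against 4.29% of all rows. The call was lost (adjusted edgeR p of 0.0739) when control replicate 2 was left out. The summed level of the endothelial markers was 662 to 687 CPM in controls and 609.5 to 725 CPM in the libraries labelled knockdown. Floor plate and hypochord markers had a median of -0.081 over 14 rows, with 0 called by edgeR. An unadjusted edgeR p-value under 0.05 was found for 1 of these rows, or 7.14%, against 18.1% of all rows. Medians were -0.69 for blood over 13 rows, -0.74 for skeletal muscle over 21 and -0.17 for neural crest over 17. In that order, 5, 6 and 4 were called lower and 0, 2 and 1 called higher. These calls made up 38.5%, 38.1% and 29.4% of the tested rows, against 4.29% of all rows. The markers *islr2*, *her6*, *sox1a*, *flt1*, *lyve1b*, *gata1a* and *ckma* were at 0 in every library in both of their rows. The counting tool is not given, so these values were not taken to mean that the transcripts were absent. Their source was not tested.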

How the data were processed

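The authors deposited 1 table of raw read counts per row name for 6 libraries of ribosomal RNA-depleted total RNA, sequenced as paired 100-base reads per the labels' protocols. FastQC, cutadapt, STAR, DESeq2 and GRCz11 are named in the submitters' processing notes without role or version; the counting tool, annotation and strand setting are not given in the sources used here. Reads of overlapping or antisense genes can therefore not be separated, and no coordinates are given. Of the 66 member names, 62 matched a RefSeq symbol of GRCz12tu and the rest an older name. Columns were matched through the library names in the labels; 1 control description repeats replicate number 2, and titles were used.

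Rows were filtered with filterByExpr (minimum count 10, minimum total 15), scaled with TMM over the tested rows, and tested genome-wide with edgeR 4.0.16 in R 4.3.3 (glmQLFit, robust, group only). CPM is the count divided by the scaled library size; log2 deviations used a prior count of 2. Standard errors are the estimate divided by the root of F. The alternatives were DESeq2 1.42.0, DESeq2 size factors, no filter, at least 10 counts in every library, a replicate block, rows of one name summed, and leaving out each library. Figures used matplotlib 3.10.9.

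The members and lists were chosen with earlier results of these data known. Named genes were those at an unadjusted p-value under 0.05 and the 3 with the most CPM per family, with other rows, such as paralogs, named after their values were seen.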

Additional observations from a re-analysis of the deposited data

How the results depend on the processing

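The number of guidance members called was 0 under DESeq2 size factors, no filter on low counts, at least 10 counts in every library, the replicate block and summed rows, and 1 with the DESeq2 test. Leaving out single libraries gave 0 to 2, with 2 without knockdown replicate 2 and 0 in the other 5 fits. At an unadjusted p-value under 0.05 there were 6 members with DESeq2 (8.57%, against 12.7% of all rows), 17 without knockdown replicate 2 (24.3% against 20.8%) and 11 without a filter (13.4% against 12.4%), compared with 10 (14.3% against 18.1%). Without knockdown replicate 2 and without a filter the members' share therefore lay above that of all rows. Over all tested genes, 669 were called, 1010 without a filter, 773 with the replicate block, and 219 to 914 when single libraries were left out. The median log2 fold change of the members ran from -0.061 without knockdown replicate 1 to 0.056 without knockdown replicate 2. Same-numbered samples deviated together little, with correlations of -0.014, 0.066 and 0.069, against -0.098 to 0.052 for samples with different numbers. These values do not settle whether the numbers mark pairs. The labels tie no number to a shared clutch or day, so the numbers were not taken as pairs. Precision was lower for rows under 20 CPM, whose median standard error was 0.28 against 0.17 for the others.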

Other observations

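The uneven split of counts between rows of one name was also seen outside the guidance genes. Over 640 other names with 2 rows, at least 30 counts in every library and 10% to 90% of counts on the unsuffixed row, that share varied between libraries by a median of 18.5 percentage points, and by at least 20 points for 272 names. Deviations of the share from each name's mean correlated at r = 0.23 between control replicates 1 and 2, and at 0.20 and 0.24 between these and knockdown replicate 2. Control replicate 3 and knockdown replicate 3 correlated at 0.28, and knockdown replicate 1 correlated with no library above -0.054. Centring alone gives a mean of -0.20 for 6 libraries, and since genes are no independent replicates the values only describe these libraries. The libraries alike in this respect were not those of one group. The share of all counts on suffixed rows was 2.76% to 2.97% in the 6 libraries.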
